A study of Mus musculus with 41 samples.

Results

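The comparison set 4 pools of lung mesenchyme from fetal mice exposed to dexamethasone against 2 pools from fetuses exposed to saline, and described the genes that differed 2 hours after injection. The pools were taken by their titles, 6 of the 41 samples of a study of how glucocorticoids act on the lung before birth. Every fetus used carried Twist2Cre and Rosa26mT/mG, a reporter that turns a cell from red (tdTomato) to green (GFP) once Cre has acted, so both arms share these alleles. Pregnant dams were injected into the peritoneum at E18.5 with 1 mg/kg dexamethasone, a synthetic glucocorticoid, or with saline, and fetal lungs were collected 2 hours later. Lungs were pooled by genotype, so each pool is a mixture of fetuses whose number is not stated, and cells that were GFP+ and tdTomato- were sorted. Cre marks cells that expressed Twist2 at any earlier time: Twist2 RNA itself lay between 0 and 0.901 CPM (counts scaled to a common library size) in the 6 pools. Separate litters are not stated for the pools, and p-values therefore reflect variation among these 6 samples, which may be technical. Of 24371 genes in the table, 1111 on the X or Y chromosome and 132 without a known chromosome were left out, and 10855 of the remaining 23128 autosomal genes had enough counts to be tested.

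Dexamethasone enters cells and binds the glucocorticoid receptor, the product of Nr3c1, which moves to the nucleus, binds DNA and raises or lowers the transcription of target genes within hours. In the fetal lung the hormone acts strongly through the mesenchyme, the fibroblasts, muscle cells and pericytes around the airways, and mice without the receptor in mesenchyme have immature lungs at birth. Well-known targets such as Fkbp5, Tsc22d3, Per1 and the metallothioneins formed a list of classic steroid targets that is not described gene by gene here. The results below concern genes beyond it.

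The pools differed in more than treatment. Xist, the RNA that marks cells with 2 X chromosomes, stood at 33133 and 20880 CPM of all counts in saline pools 1 and 2 and at 374, 11111, 12.6 and 6.59 CPM in dexamethasone pools 1 to 4. Ddx3y, a Y chromosome gene, stood at 1.20 and 0 CPM in the saline pools and at 106, 74.4, 131 and 174 CPM in the dexamethasone pools. Saline pools thus held RNA of female fetuses almost alone, dexamethasone pools 1, 3 and 4 that of male fetuses, and dexamethasone pool 2 both. Treatment and fetal sex cannot be told apart in pools 1, 3 and 4, and leaving out sex-linked genes removes only their direct share. The summed level of 15 matrix fibroblast markers was 22796 to 29449 CPM after dexamethasone and 20071 to 23515 CPM after saline. Most of that sum came from Macf1 (10454 to 12568.5 CPM over all pools) and Mfap4 (5594 to 11757 CPM). Tcf21 stood at 82.4 to 158 CPM and Limch1 at 422 to 817 CPM, so the sum by itself is no measure of fibroblast identity. Immune markers summed to 12.9 to 35.8 and 31.3 to 147 CPM, with C1qa at 0 in all pools. Cartilage RNA differed as well: 14 chondrocyte markers summed to 24.4 to 474 CPM in the dexamethasone pools and 775 to 1776 CPM in the saline pools, and all 10 that could be tested had lower fitted levels after dexamethasone. By edgeR 0 of these 10 passed at an adjusted p under 0.05, and 5 were lower at an unadjusted p under 0.05. At the adjusted threshold limma-voom called 7 lower and DESeq2 0. In sorted bulk RNA, fewer cells of a type and less RNA per cell cannot be told apart. Total counts ran from 1670896 in saline pool 1 to 4224245 in dexamethasone pool 1.

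**Figure D1:**
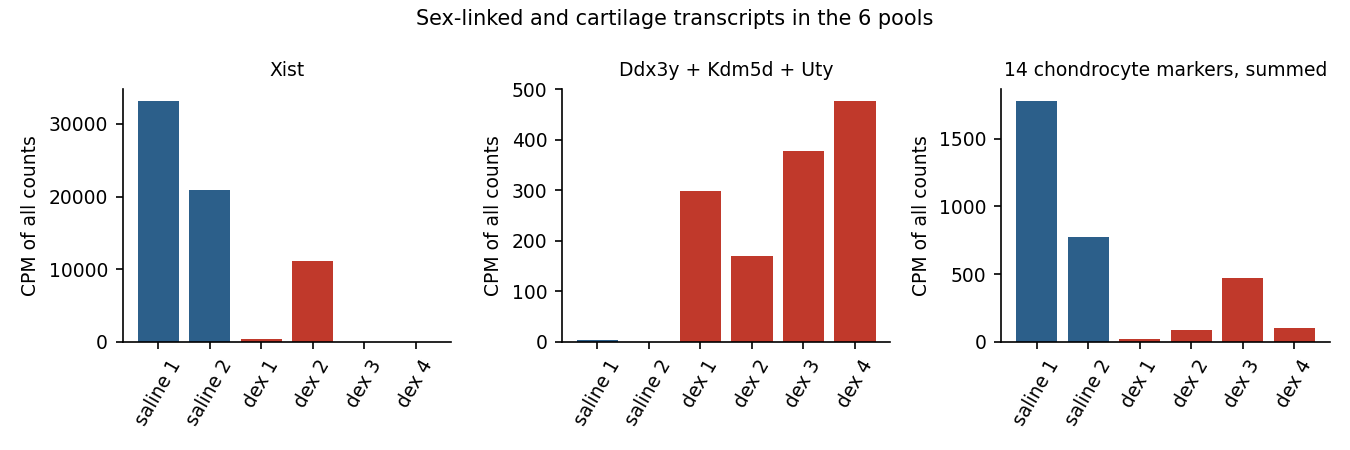
Levels in each of the 6 pools of Xist (left), of 3 Y chromosome genes added together (middle) and of 14 chondrocyte markers added together (right), in CPM of all counts; each bar is 1 pool. Saline pools (blue) lack Y chromosome RNA and hold more cartilage RNA than any dexamethasone pool (red), and dexamethasone pool 2 holds both Xist and Y chromosome RNA.

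Between dexamethasone and saline pools 284 autosomal genes differed, or 2.62% of the genes tested, and most of them were higher after dexamethasone. Here and below, rose and fell name the direction in the dexamethasone pools, in which treatment goes together with fetal sex and cartilage RNA as given above. Levels of 206 genes rose (1.9% of those tested) and levels of 78 fell (0.719%), at an adjusted p under 0.05 by edgeR. Of the classic steroid targets, 18 of 33 tested rose and 0 fell (1 was lower at an unadjusted p under 0.05, and DESeq2 also called 0 lower), which leaves 188 risen and 78 fallen genes outside that list. Median log2 fold changes were 1.61 for risen genes and -1.70 for fallen genes, against -0.01 over all genes tested. Rises of 4-fold or more numbered 67 and falls of that size 23. Some of the largest falls were in scarce genes. Olfr470 (log2 fold change -7.46), Zfp352 (-5.70) and Olfr46 (-5.11) each had too few counts to be tested in 1 of the fits that left out a pool. In all 284 genes the 4 dexamethasone pools lay entirely above or below the 2 saline pools, a separation seen in 23.2% of all genes tested. Protein-coding genes made up 275 of the changes and long non-coding RNAs 7.

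A smaller set did not depend on any single pool. When each of the 6 pools was left out in turn, and only 1 at a time in every such statement below, 63 rises (0.58% of genes tested) and 3 falls (0.0276%) passed in every fit, and 53 of those 63 rises lay outside the classic list. In what follows, every fit means the full fit and the 6 that leave out 1 pool, not the fits with a covariate. Leaving out 1 pool gave between 168 and 320 calls in all, 168 without dexamethasone pool 1, 174 without dexamethasone pool 4, 186 without saline pool 1 and 179 without saline pool 2. Dexamethasone pool 2, the one with RNA of both sexes, gave 86 calls when set alone against the saline pools. That arm is 1 library, assumed to vary as the saline pair does, and most fits that chose the 63 rises included it, so the 47 of the 63 that passed there are a description and no independent check. With Xist on a log2 scale as a covariate 178 genes passed, 61 of the 63 rises among them. With Xist on a linear scale, a setting added after seeing the data, edgeR called 0 genes, with 714 at an unadjusted p under 0.05: all 206 risen and 78 fallen genes kept their direction, and the median SE of the risen genes went from 0.29 to 0.64. With the chondrocyte marker level as a covariate 20 genes passed, all of them risen and 19 of them among the 63. Scaling by library totals moved the median of all genes to -0.11 and the share of rises among 266 calls from 72.5% to 60.9%. No part of the difference in sex or in cartilage RNA was tested as a source of these changes beyond those fits.

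The rises that held in every fit outside the classic list, and were largest, included genes for surface proteins, enzymes, signalling proteins and transcription factors, and a pair of long non-coding RNAs given last. Values are given in the order of dexamethasone pools 1 to 4 and then saline pools 1 and 2, in CPM scaled by TMM (trimmed mean of M values, which sets the libraries to a common scale). At the cell surface, Nt5e, the ectoenzyme CD73 that makes adenosine from AMP, stood at 68.0, 95.036, 31.2 and 66.9 against 10.9 and 10.9 CPM (log2 fold change 2.58, SE 0.46, adjusted p = 0.0041). It was scarce in both saline pools and several times higher in pools 1, 2 and 4, with the lowest treated value in pool 3. Amigo2, a leucine-rich repeat adhesion protein (chromosome 15, 97244074 to 97247287), stood at 204, 206, 133 and 209 against 45.7 and 13.9 CPM (log2 fold change 2.70, SE 0.41, adjusted p = 0.0016). The gene overlaps Pced1b and had fractional counts in 50.0% of the pools, so reads may be shared. Ezr, or ezrin, which ties the plasma membrane to actin, stood at 113, 104, 93.0 and 91.5 against 16.4 and 22.2 CPM (log2 fold change 2.36, SE 0.32, adjusted p = 0.00034), and its 4 treated pools were close together.

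Signalling genes inside the cell rose by similar amounts. Arhgef3, an exchange factor that activates the GTPase RhoA (chromosome 14, 27114461 to 27403916), stood at 127, 172, 104 and 75.2 against 17.1 and 17.4 CPM (log2 fold change 2.79, SE 0.38, adjusted p = 0.0003). Mras, a small GTPase of the Ras family, stood at 151, 99.7, 106 and 125 against 20.5 and 25.2 CPM (log2 fold change 2.39, SE 0.32, adjusted p = 0.00028). Pid1, a phosphotyrosine-binding domain protein that binds the lipoprotein receptor LRP1, stood at 145, 156, 157 and 197 against 28.7 and 29.1 CPM (log2 fold change 2.50, SE 0.29, adjusted p = 7.2e-05). The saline pools of Arhgef3 and of Pid1 were almost equal, and every treated pool stood more than 4 times above them. Mkx, the homeobox factor Mohawk known from tendon, stood at 181, 185, 116 and 153 against 12.3 and 36.9 CPM (log2 fold change 2.65, SE 0.39, adjusted p = 0.00085). Tcim, listed as 1810011O10Rik and known as a regulator of transcription, stood at 116, 119, 122 and 197 against 8.87 and 42.6 CPM (log2 fold change 2.37, SE 0.48, adjusted p = 0.017). In these last 2 genes the saline pools themselves differed by several fold, yet neither reached the lowest treated pool.

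Others of the 16 act in NAD supply, cell death and mitophagy, and Deptor, an inhibitor of the mTOR kinase, is given further below. Nampt, the rate-limiting enzyme of NAD salvage (chromosome 12, 32820335 to 32853369), stood at 502, 745, 489 and 675 against 117 and 119 CPM (log2 fold change 2.35, SE 0.26, adjusted p = 5.2e-05). Gdap10, which lies within the span of Nampt, stood at 360.3, 363, 494 and 365 against 71.6 and 78.2 CPM (log2 fold change 2.40, SE 0.25, adjusted p = 4.3e-05). Whether the counting used strand is not given in the sources used here, so reads of Gdap10 and Nampt cannot be assigned with certainty. Trp53inp1, a protein induced by p53 that acts in cell death and autophagy (chromosome 4, 11156441 to 11174379), stood at 555, 529, 451 and 557 against 99.6 and 96.4 CPM (log2 fold change 2.42, SE 0.24, adjusted p = 2.7e-05). Bnip3, a mitochondrial protein that promotes mitophagy (chromosome 7, 138890836 to 138909506), stood at 174, 172, 159 and 275 against 38.9 and 38.2 CPM (log2 fold change 2.34, SE 0.30, adjusted p = 0.00023). Saline pools agreed closely for both genes, and the treated pools lay within a narrow band except for Bnip3 in pool 4.

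The largest log2 fold changes among the 16 rises named by size were in a pair of long non-coding RNAs on chromosome 19. C730002L08Rik (chromosome 19, 20534527 to 20552330) stood at 30.7, 46.0, 65.9 and 62.5 against 3.41 and 1.74 CPM (log2 fold change 4.35, SE 0.57, adjusted p = 0.00023). E030003E18Rik (chromosome 19, 20492715 to 20556410) stood at 25.8, 35.5, 55.2 and 54.1 against 2.05 and 3.48 CPM (log2 fold change 3.87, SE 0.57, adjusted p = 0.00066). Both spans overlap each other and lie within that of Aldh1a1, which encodes an enzyme that makes retinoic acid and which stood at 120.2, 221, 124 and 188 against 43.0 and 30.8 CPM (log2 fold change 2.15, SE 0.33, adjusted p = 0.001). Reads of the 3 genes may therefore be shared, and the 2 RNAs are uncertain as separate genes. The neighbour Anxa1, 102 kb away, had a log2 fold change of -1.23 and did not pass (adjusted p = 0.32).

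**Figure D2:**
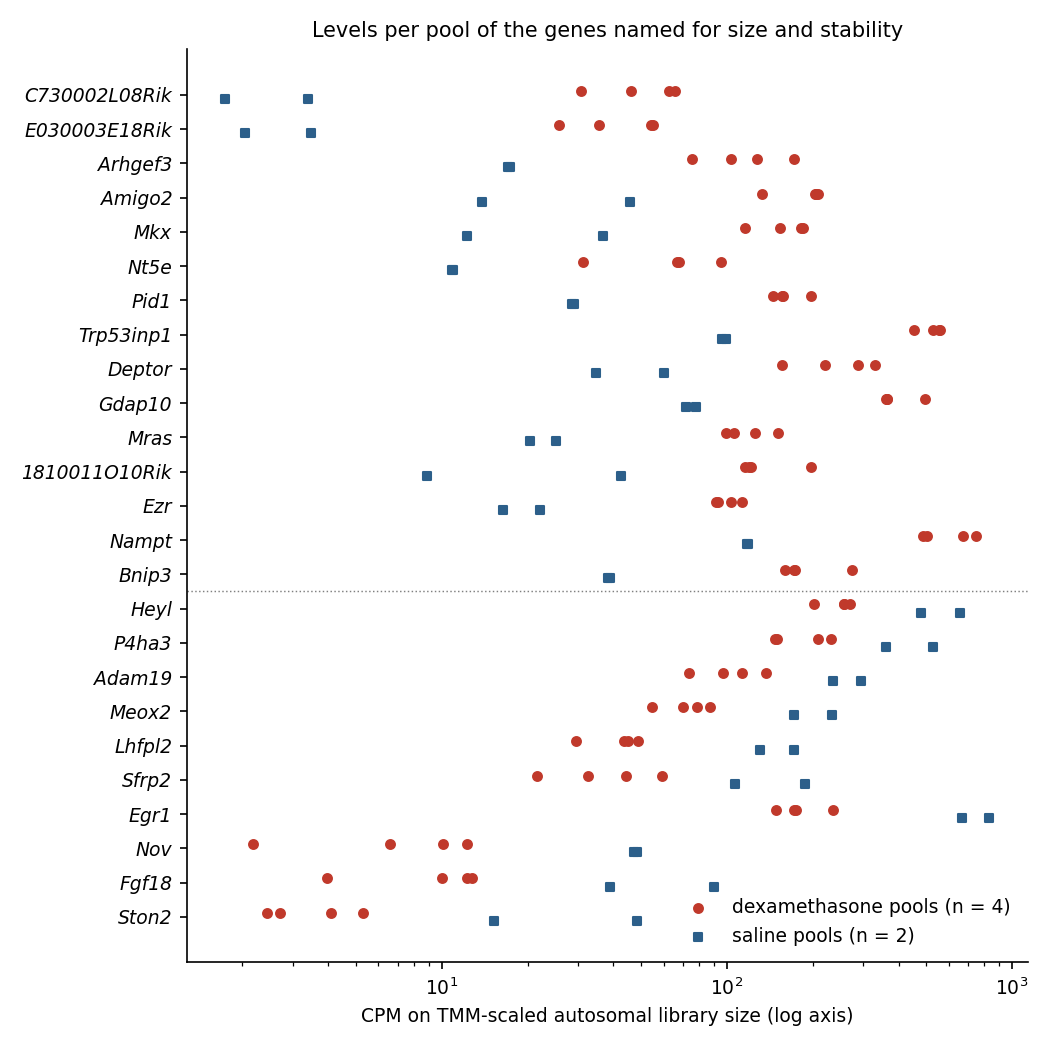
Level of each gene in each pool, in CPM on a log axis, for 15 of the 16 largest rises (above the dotted line) and 10 falls (below it) named for size and stability; red circles are the 4 dexamethasone pools and blue squares the 2 saline pools. No gene has overlapping groups, and the saline pools of Amigo2, Mkx, Tcim (1810011O10Rik) and Ston2 are the farthest apart.

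These 16 rises were checked against Xist and cartilage RNA, which differed between pools. Other marker sums also separated the groups, though no marker on these lists passed by edgeR. Cardiac and skeletal muscle markers summed to 235 to 531 CPM after dexamethasone and 584 to 867 CPM after saline. Smooth muscle markers summed to 3201 to 3628 and 4025 to 4279 CPM. The part of muscle RNA in these rises was not tested. With log2 Xist as a covariate 14 passed, and Tcim was among the 2 that did not. With linear Xist 0 passed by edgeR, with 14 at an unadjusted p under 0.05. With the chondrocyte level 6 passed, and the fitted changes were still all upward, from 1.32 to 5.26.

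Several other rises that held in every fit were in genes for enzymes. The genes of this paragraph were chosen after their values were seen. Mocs1, which carries out the first step in making the molybdenum cofactor, stood at 489, 484, 401 and 546 against 102 and 90.4 CPM (log2 fold change 2.32, SE 0.24, adjusted p = 4.3e-05). Xdh, xanthine dehydrogenase, an enzyme that needs that cofactor, stood at 329, 247, 283 and 276 against 73.7 and 67.3 CPM (log2 fold change 2.01, SE 0.25, adjusted p = 0.00017). For both, the saline pools agreed and all treated pools were at least 3 times higher. Fmo2, a flavin monooxygenase abundant in lung, stood at 3125, 2986, 2524 and 3035 against 1143 and 1184 CPM (log2 fold change 1.33, SE 0.21, adjusted p = 0.0014). Mme, the peptidase neprilysin, stood at 684, 815, 429 and 595 against 151 and 232 CPM (log2 fold change 1.72, SE 0.28, adjusted p = 0.0021). Dpep1, a membrane dipeptidase, stood at 1327, 1942, 1519 and 1865 against 602 and 486 CPM (log2 fold change 1.61, SE 0.24, adjusted p = 0.00068). In saline pools these 3 were already more abundant than Nt5e, and each treated pool was above both saline pools. Chst15, which sulphates chondroitin chains, rose by 1.98 on the log2 scale, and Tgm2, the crosslinking enzyme transglutaminase 2, by 1.73 (adjusted p = 0.0002 and 0.0011). Il6ra, the interleukin 6 receptor subunit, stood at 259, 252, 189 and 181 against 40.9 and 52.6 CPM (log2 fold change 2.23, SE 0.28, adjusted p = 0.0002), and Tiparp, a mono-ADP-ribosyltransferase, at 285, 370.1, 234 and 283 against 48.4 and 79.5 CPM (log2 fold change 2.18, SE 0.29, adjusted p = 0.00023).

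Falls were fewer than rises, and 3 held in every fit that left out 1 pool. Egr1, a transcription factor that growth factors induce within minutes, stood at 172, 149, 236 and 175 against 832 and 666 CPM (log2 fold change -2.04, SE 0.22, adjusted p = 4.4e-05). Nov, also called Ccn3, a secreted matricellular protein (chromosome 15, 54745910 to 54753762), stood at 2.18, 6.57, 12.3 and 10.1 against 47.1 and 48.2 CPM (log2 fold change -2.65, SE 0.51, adjusted p = 0.0082). Lhfpl2, a tetraspan membrane protein (chromosome 13, 94057152 to 94195410), stood at 48.9, 43.7, 45.0 and 29.5 against 130.3 and 172 CPM (log2 fold change -1.85, SE 0.28, adjusted p = 0.00085). Saline pools agreed closely for Nov and within 1.5 times for the other two, and the lowest treated pool was pool 1 for Nov, pool 2 for Egr1 and pool 4 for Lhfpl2. With the chondrocyte level as a covariate, none of the 10 falls named here passed by edgeR (8 had an unadjusted p under 0.05) and all 10 stayed negative. With log2 Xist as a covariate Nov and Egr1 passed.

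Another 7 falls of smallest p each depended on 1 saline pool. Fgf18, a growth factor made by lung mesenchyme, stood at 12.2, 10.0, 12.8 and 3.96 against 38.9 and 89.9 CPM (log2 fold change -2.72, SE 0.46, adjusted p = 0.0023), and did not pass without saline pool 2 (adjusted p = 0.12). Meox2, a homeobox factor, stood at 78.6, 87.3, 54.7 and 70.4 against 172 and 234 CPM (log2 fold change -1.48, SE 0.25, adjusted p = 0.003), and did not pass without saline pool 2 (adjusted p = 0.07). Heyl, a repressor induced by Notch, stood at 256, 258, 269.9 and 202 against 659 and 480.4 CPM (log2 fold change -1.21, SE 0.22, adjusted p = 0.0041), and did not pass without saline pool 1 (adjusted p = 0.082). In all 3 both saline pools stood above every treated pool, and the saline pools differed from each other. Sfrp2, a secreted modulator of Wnt signals, stood at 32.6, 44.4, 59.3 and 21.6 against 106 and 188 CPM (log2 fold change -1.91, SE 0.35, adjusted p = 0.0061), and did not pass without saline pool 2 (adjusted p = 0.12). Ston2, an endocytic adaptor, stood at 2.45, 2.70, 4.09 and 5.28 against 48.4 and 15.2 CPM (log2 fold change -3.13, SE 0.58, adjusted p = 0.0062), and did not pass without saline pool 1 (adjusted p = 0.31). Adam19, a membrane metalloprotease, fell by 1.33 on the log2 scale and did not pass without saline pool 2 (adjusted p = 0.092). P4ha3, a subunit of the prolyl hydroxylase that modifies collagen, fell by 1.27 and did not pass without saline pool 2 (adjusted p = 0.13). Cartilage RNA was lower in the same direction in the treated pools, with Col2a1 at 7.07, 30.5, 281 and 47.1 against 1243 and 425 CPM, and its part in these falls was not tested beyond the covariate fit above.

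Of 29 pathway lists, the one with the most rises held genes of the mTOR kinase, of insulin and FoxO signalling and of autophagy, some of which drive growth and some of which restrain it. The kinase mTOR drives protein synthesis, FoxO factors switch on genes of fasting and stress resistance when insulin signals are low, and autophagy genes help cells recycle their contents. In this list 10 of 32 tested genes rose and 0 fell, or 31.2% risen, against 1.9% of all tested genes risen and 0.719% fallen. Members and lists were chosen with earlier results of these data known, so this share is a description and no test of the list. A list of 44 genes, the most tested in any, would hold 0.835 risen genes at that share, so 1 call in a list is close to the background and is given for its value alone. The unadjusted p was under 0.05 for 15 higher and 0 lower genes, and DESeq2 called 14 higher and 0 lower. The median log2 fold change of the list was 0.49, against -0.01 over all genes.

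Growth signalling genes came first. Deptor, an inhibitor that binds the mTOR kinase (chromosome 15, 55112317 to 55259273), stood at 331, 288, 156 and 220.0 against 60.036 and 34.8 CPM (log2 fold change 2.41, SE 0.34, adjusted p = 0.00066). Sesn1, a sestrin that holds mTOR complex 1 in check when leucine is short, stood at 169, 158, 154 and 170.3 against 87.3 and 60.4 CPM (log2 fold change 1.15, adjusted p = 0.021). Pik3r1, the regulatory subunit of PI3 kinase, rose by 0.98 (adjusted p = 0.045). All of these groups were separate, though Deptor was lowest in pools 3 and 4 among the treated. Sesn1 did not pass without dexamethasone pool 1 or 4 or saline pool 2 (adjusted p from 0.053 to 0.18), and Pik3r1 without dexamethasone pool 1, 2 or 4 or saline pool 2 (adjusted p from 0.087 to 0.32).

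Fasting and stress factors rose as well. Foxo3, itself a FoxO factor, stood at 569, 323, 348 and 382 against 145 and 121 CPM (log2 fold change 1.61, SE 0.27, adjusted p = 0.0022). Arrdc3, an alpha-arrestin that directs receptors to degradation, stood at 1045, 1029.9, 1014 and 1193 against 184 and 289.7 CPM (log2 fold change 2.17, SE 0.25, adjusted p = 6.6e-05). Treated pools of Arrdc3 were nearly equal and stood well above both saline pools. Txnip, an alpha-arrestin that limits glucose uptake, rose by 1.33 and did not pass without saline pool 2 (adjusted p = 0.15). Gabarapl1, a protein of autophagosome membranes, rose by 1.92 and did not pass without dexamethasone pool 1 or saline pool 1 or 2 (adjusted p from 0.06 to 0.12). Cited2, a transcriptional cofactor, rose by 1.27 and did not pass without dexamethasone pool 2 or saline pool 1 or 2 (adjusted p from 0.066 to 0.14). Bnip3, given above, was a further risen member. Among members that did not pass, Irs2 had a log2 fold change of 1.25 (adjusted p = 0.07), Fbxo32 one of 1.25 (adjusted p = 0.06) and Foxo1 one of 0.75 (adjusted p = 0.1).

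**Figure D3:**
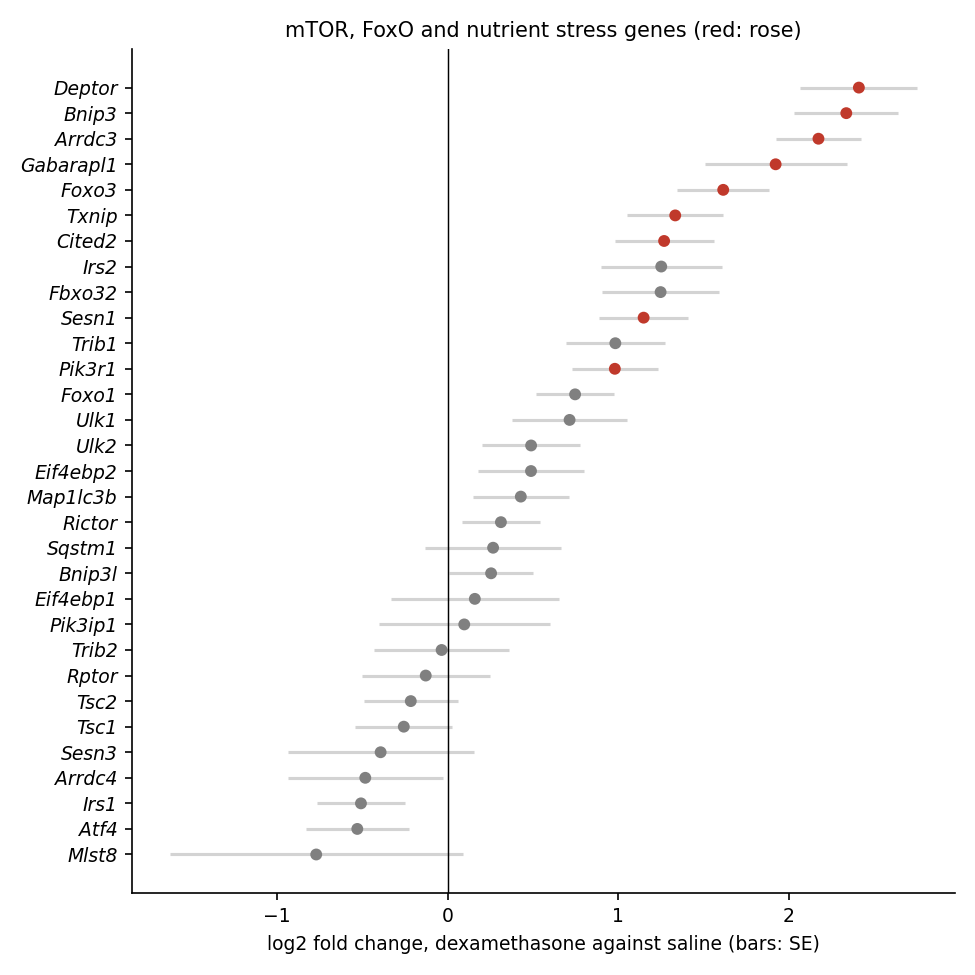
Log2 fold change of 31 of the 32 tested genes of mTOR, FoxO and nutrient stress, with bars of 1 SE; red points passed the test and grey points did not. The 9 red points lie between 0.98 for Pik3r1 and 2.41 for Deptor, and no gene passed below 0.

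Counts in this list moved with the pools. Leaving out 1 pool gave 4 to 12 rises and 0 falls. Log2 Xist as a covariate gave 7 rises and the chondrocyte level 1 rise, and with linear Xist 0 of the 10 passed.

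Lipid handling and the list of G protein coupled receptors and their regulators were the next without a fall. Lipid genes gave 5 rises among 44 tested (median 0.20; 3 were lower at an unadjusted p under 0.05, and DESeq2 called 0 lower). Pnpla2, the lipase that starts the breakdown of stored triglyceride, stood at 52.8, 16.6, 15.8 and 20.7 against 5.46 and 1.74 CPM (log2 fold change 2.96, SE 0.71, adjusted p = 0.031), and Abhd5, its coactivator, at 110.4, 138, 57.8 and 77.0 against 25.2 and 42.6 CPM (log2 fold change 1.48, SE 0.38, adjusted p = 0.044). Lpin1, a phosphatidate phosphatase that is also a transcriptional cofactor, stood at 396, 284, 247 and 294 against 115 and 76.5 CPM (log2 fold change 1.68, SE 0.27, adjusted p = 0.0016) and was the one of the 5 to hold in every fit. Abca1, the exporter of cholesterol, rose by 1.02. Enpp2, or autotaxin, which makes lysophosphatidic acid, stood at 1289, 1109, 639 and 1096 against 518 and 251 CPM (log2 fold change 1.43, SE 0.32, adjusted p = 0.026). The groups were separate in each, with a wide spread among treated pools for Pnpla2. Pnpla2 did not pass without dexamethasone pool 1 or 4 or saline pool 2 (adjusted p from 0.054 to 0.21), Abhd5 without dexamethasone pool 1, 2 or 4 or saline pool 1 or 2 (adjusted p from 0.063 to 0.26), Abca1 without dexamethasone pool 1 or 4 or saline pool 2 (adjusted p from 0.059 to 0.2) and Enpp2 without dexamethasone pool 1, 2 or 4 or saline pool 2 (adjusted p from 0.059 to 0.17).

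Receptor genes gave 4 rises among 29 tested (median 0.24; 2 were lower at an unadjusted p under 0.05, and DESeq2 called 0 lower). Among these were receptors for lysophosphatidic acid, natriuretic peptides and angiotensin. The one for natriuretic peptides, Npr3, is not a G protein coupled receptor by structure. Lpar1, a receptor for the lipid that Enpp2 makes, stood at 247, 235, 192 and 283 against 102 and 108 CPM (log2 fold change 1.19, SE 0.24, adjusted p = 0.011). Npr3, which clears natriuretic peptides, stood at 679, 549, 348 and 545 against 263 and 194 CPM (log2 fold change 1.22, SE 0.27, adjusted p = 0.018), and Agtr1a, an angiotensin II receptor, at 111, 126, 106 and 77.9 against 58.0 and 31.7 CPM (log2 fold change 1.25, SE 0.32, adjusted p = 0.047). Treated pools were about 2 times higher or more for each on average, and the lowest treated pool came closest to the saline pools in Npr3 and Agtr1a. Lpar1 did not pass without saline pool 1 or 2 (adjusted p from 0.067 to 0.088), Npr3 without dexamethasone pool 1 or 4 or saline pool 2 (adjusted p from 0.054 to 0.16) and Agtr1a without dexamethasone pool 1, 2, 3 or 4 or saline pool 2 (adjusted p from 0.053 to 0.29).

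Enzymes at both ends of retinoic acid turnover rose. Besides Aldh1a1, given above, Cyp26b1, which breaks retinoic acid down, stood at 31.0, 29.0, 17.9 and 28.6 against 5.46 and 2.61 CPM (log2 fold change 2.77, SE 0.57, adjusted p = 0.011) and did not pass without saline pool 2 (adjusted p = 0.12). Ptges, which makes prostaglandin E2, stood at 7.07, 6.57, 4.60 and 7.92 against 30.0 and 28.7 CPM (log2 fold change -2.15, SE 0.47, adjusted p = 0.018) and did not pass without saline pool 1 or 2 (adjusted p from 0.099 to 0.1). The retinoid and prostaglandin list thus gave 2 rises and 1 fall among 18 tested (median 0.11). Glucose and amino acid genes gave 1 rise among 35 tested (2.86%, near the 1.9% of all genes) and 0 falls (3 were lower at an unadjusted p under 0.05, and DESeq2 called 0 lower). The rise was that of Pfkfb3, whose product speeds glycolysis, by 1.14 on the log2 scale, and it did not pass without dexamethasone pool 1, 2 or 4 or saline pool 1 or 2 (adjusted p from 0.069 to 0.22).

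Channel and chaperone lists gave 2 rises each and no fall. Clca3a1, of the calcium-activated chloride channel regulator family, stood at 91.9, 107, 167 and 234 against 40.1 and 50.8 CPM, had fractional counts in all pools and did not pass without saline pool 1 or 2 (adjusted p from 0.092 to 0.15). Hspb8, a small heat shock protein, stood at 73.4, 88.5, 40.4 and 47.5 against 12.3 and 15.2 CPM (log2 fold change 2.17, SE 0.42, adjusted p = 0.0084), and did not pass without saline pool 1 (adjusted p = 0.062). Dnaja1, a J-domain cochaperone that had fractional counts in all pools and overlaps Gm6297, rose by 0.99 and did not pass without dexamethasone pool 1, 2 or 4 or saline pool 1 (adjusted p from 0.065 to 0.29). Of 34 channel and 28 chaperone genes tested, 2 and 1 were lower at an unadjusted p under 0.05, and DESeq2 called 1 and 0 lower.

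Matrix genes moved in both directions. Elastic fibre and matrix glycoprotein genes gave 1 rise and 3 falls among 39 tested (median -0.03). Igfbp3, which binds insulin-like growth factors, stood at 283, 191, 117 and 188 against 51.2 and 40.4 CPM (log2 fold change 2.10, SE 0.34, adjusted p = 0.0016) and held in every fit. Fbln5, needed for elastic fibre assembly, stood at 205, 185, 187 and 254 against 365 and 440.5 CPM (log2 fold change -0.96, SE 0.22, adjusted p = 0.022), and Fbln2, a related fibulin, at 14.7, 21.2, 50.1 and 17.2 against 57.3 and 126 CPM (log2 fold change -1.85, SE 0.45, adjusted p = 0.041). Fbln2 in treated pool 3 came close to saline pool 1, while Fbln5 was well separated. Fbln5 did not pass without dexamethasone pool 1 or 2 or saline pool 2 (adjusted p from 0.056 to 0.17), and Fbln2 without dexamethasone pool 1, 2 or 4 or saline pool 2 (adjusted p from 0.1 to 0.37). Proteoglycan genes gave 1 rise and 1 fall among 26 (3.85% each; median -0.26). Sdc4, a heparan sulphate proteoglycan, stood at 191, 131, 126 and 206 against 20.5 and 62.6 CPM (log2 fold change 1.95, SE 0.39, adjusted p = 0.013), and Gpc6, a glypican, at 162, 277, 386 and 194 against 862 and 624 CPM (log2 fold change -1.55, SE 0.29, adjusted p = 0.0085). Both calls were lost without saline pool 1, where their adjusted p-values were 0.075 and 0.093. Of 24 collagen genes 0 passed (2 higher and 2 lower at an unadjusted p under 0.05, and DESeq2 called 1 higher).

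Matrix proteases gave 4 rises and 1 fall among 35 tested (median -0.03). Adamts15, a protease that cleaves proteoglycans, stood at 414, 229.9, 223 and 238 against 71.0 and 60.8 CPM (log2 fold change 2.07, SE 0.30, adjusted p = 0.00066) and held in every fit. Adamts1, of the same family, stood at 2210.3, 2406, 1326 and 1733 against 817 and 934 CPM (log2 fold change 1.13, SE 0.25, adjusted p = 0.018), and Mmp19, a matrix metalloprotease, at 96.9, 89.6, 108 and 107 against 40.8 and 43.4 CPM (log2 fold change 1.25, SE 0.28, adjusted p = 0.022). Adamtsl2, a relative that lacks the protease domain, rose by 1.45. In these 4 every treated pool exceeded both saline pools, and the fall was that of Adam19. Adamts1 did not pass without dexamethasone pool 1 or saline pool 1 or 2 (adjusted p from 0.058 to 0.14), Mmp19 without dexamethasone pool 4 or saline pool 1 or 2 (adjusted p from 0.065 to 0.12) and Adamtsl2 without dexamethasone pool 1, 2 or 4 or saline pool 1 or 2 (adjusted p from 0.057 to 0.14).

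Actin regulators split, with 3 rises and 4 falls among 41 tested (median 0.00). Rock2, a kinase that acts downstream of RhoA, stood at 1990.1, 2185, 2219 and 2081 against 1108 and 826 CPM (log2 fold change 1.13, SE 0.21, adjusted p = 0.0073) and did not pass without saline pool 2 (adjusted p = 0.093). Ston1, an endocytic adaptor and not an actin regulator by function, stood at 127, 112, 106 and 96.3 against 31.4 and 29.1 CPM (log2 fold change 1.87, SE 0.30, adjusted p = 0.0014), opposite in direction to its relative Ston2. Synpo, an actin-bundling protein, stood at 13.3, 12.4, 39.4 and 22.9 against 89.4 and 88.6 CPM (log2 fold change -2.04, SE 0.41, adjusted p = 0.01) and did not pass without saline pool 2 (adjusted p = 0.054). Arhgap29 and Arhgap20, which switch small GTPases off, fell by 1.11 and 1.29 on the log2 scale. Arhgef3 and Rock2 were thus higher and these inactivators lower in every treated pool than in either saline pool. Arhgap29 did not pass without saline pool 1 (adjusted p = 0.14), and Arhgap20 without dexamethasone pool 1 or 4 or saline pool 2 (adjusted p from 0.055 to 0.21).

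TGF-beta and BMP genes gave 2 rises and 1 fall among 36 tested (median 0.08). Tgfbr3, the coreceptor betaglycan, stood at 1605, 1268, 938 and 991 against 492 and 451 CPM (log2 fold change 1.35, SE 0.25, adjusted p = 0.006), and Acvrl1, the receptor ALK1, at 61.7, 59.1, 41.4 and 52.8 against 17.7 and 14.8 CPM (log2 fold change 1.73, SE 0.38, adjusted p = 0.017). Both receptors were higher in all treated pools than in either saline pool. Tgfbr3 did not pass without saline pool 2 (adjusted p = 0.059), and Acvrl1 without dexamethasone pool 1 or saline pool 1 or 2 (adjusted p from 0.06 to 0.12).

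Transcription factor lists held falls and no rise, though factors outside these lists rose, among them Mkx and Foxo3, given above. Serum- and stress-induced factors gave 3 falls among 22 tested (median -0.53; 1 was higher at an unadjusted p under 0.05, and DESeq2 called 1 higher). Besides Egr1, Btg2, an antiproliferative cofactor, stood at 151, 138, 109 and 107 against 271 and 269 CPM (log2 fold change -1.09, SE 0.23, adjusted p = 0.013), and Nr4a1, an orphan nuclear receptor, at 25.0, 11.6, 20.4 and 16.3 against 76.4 and 43.4 CPM (log2 fold change -1.69, SE 0.39, adjusted p = 0.025). Helix-loop-helix and Notch genes gave 3 falls among 17 (median -0.52; 0 were higher at an unadjusted p under 0.05 or by DESeq2). Jag1, a Notch ligand, stood at 16.044, 15.1, 24.5 and 21.997 against 76.4 and 50.0 CPM (log2 fold change -1.70, SE 0.37, adjusted p = 0.016), and Id3, an inhibitor of helix-loop-helix factors that BMP induces, at 23.4, 17.0, 28.1 and 29.5 against 73.0 and 68.6 CPM (log2 fold change -1.53, SE 0.34, adjusted p = 0.018). Saline pools were above every treated pool in all 4. Btg2 did not pass without saline pool 1 or 2 (adjusted p from 0.071 to 0.08), Nr4a1 without dexamethasone pool 2 or 4 or saline pool 1 (adjusted p from 0.057 to 0.3), Jag1 without dexamethasone pool 1 or saline pool 1 (adjusted p from 0.059 to 0.18) and Id3 without dexamethasone pool 1 or saline pool 1 or 2 (adjusted p from 0.06 to 0.1). Among 32 lung mesenchyme factors, Meox2 and Tbx20 fell (median -0.17; 1 was higher and 12 were lower at an unadjusted p under 0.05, and DESeq2 called 1 higher). Tbx20, a T-box factor, stood at 4.08, 17.4, 20.4 and 23.8 against 71.6 and 82.5 CPM (log2 fold change -2.25, SE 0.48, adjusted p = 0.018) and did not pass without dexamethasone pool 2 or saline pool 1 or 2 (adjusted p from 0.054 to 0.11).

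Ligand and adhesion genes changed one or a few at a time. Growth factor ligands gave 1 rise and 1 fall among 26 tested (3.85% each; median -0.33): Angpt1, a ligand that steadies blood vessels, stood at 242, 259, 178 and 219 against 127 and 106 CPM (log2 fold change 0.95, SE 0.25, adjusted p = 0.045), beside the fall of Fgf18. Of 27 cytokine and chemokine genes 1 rose and 1 fell, the latter being Cxcl12, the ligand of CXCR4, at 64.4, 37.5, 69.5 and 66.0 against 123 and 160.3 CPM (log2 fold change -1.26, SE 0.29, adjusted p = 0.022). Angpt1 did not pass without dexamethasone pool 1, 2 or 4 or saline pool 1 or 2 (adjusted p from 0.099 to 0.22), and Cxcl12 without dexamethasone pool 1 or saline pool 2 (adjusted p from 0.054 to 0.19). Integrin and cadherin genes gave 2 falls among 38, Itga4 and Pcdh7, and semaphorin and ephrin genes 2 falls among 31, Sema5b and Efnb2, with 0 rises in either list (1 in each was higher at an unadjusted p under 0.05, and DESeq2 called 0). Sema5b, a guidance protein, stood at 53.3, 49.4, 70.0 and 36.1 against 132 and 147 CPM (log2 fold change -1.42, SE 0.28, adjusted p = 0.01) and did not pass without saline pool 2 (adjusted p = 0.083). Itga4, the partner integrin chain for Vcam1, fell by 1.00 and did not pass without dexamethasone pool 1, 2 or 4 or saline pool 1 (adjusted p from 0.074 to 0.56), and Pcdh7, a protocadherin, fell by 1.20 and did not pass without dexamethasone pool 1, 2 or 4 or saline pool 1 or 2 (adjusted p from 0.058 to 0.12). Efnb2, an ephrin, fell by 1.38 and passed in none of the 6 fits that left out a pool (adjusted p from 0.054 to 0.3).

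Wnt and hedgehog genes each gave a single fall. Of 29 Wnt genes Sfrp2 alone passed (3 were higher and 4 lower at an unadjusted p under 0.05, and DESeq2 called 1 higher and 3 lower). Of 12 hedgehog genes Ptch1, the receptor that is also a target of the pathway, passed, at 217, 158, 198 and 158 against 329.5 and 500.0 CPM (log2 fold change -1.18, SE 0.23, adjusted p = 0.0086), but not without saline pool 2 (adjusted p = 0.16). In that list 3 genes were higher and 4 lower at an unadjusted p under 0.05, and DESeq2 called 0 higher and 3 lower. Receptor tyrosine kinases (26 tested), MAP kinase feedback inhibitors (17), cyclic nucleotide enzymes (28) and circadian clock genes outside the classic list (13) gave 0 calls by edgeR, with 5, 5, 4 and 0 genes at an unadjusted p under 0.05 and 1, 2, 0 and 0 by DESeq2.

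Of 42 cell cycle genes tested 3 fell and 1 rose, and the median was -0.66, or 0.12 without saline pool 2. Mki67, the proliferation marker, stood at 442, 480.2, 694 and 418 against 873 and 1154 CPM (log2 fold change -0.995, SE 0.23, adjusted p = 0.025), and Ccnd2, cyclin D2, at 84.6, 62.2, 94.1 and 97.7 against 218 and 146 CPM (log2 fold change -1.10, SE 0.26, adjusted p = 0.029). Mcm5, part of the replicative helicase, stood at 5.98, 5.79, 10.2 and 5.72 against 21.1 and 31.7 CPM (log2 fold change -1.94, SE 0.50, adjusted p = 0.045). Cdk6, a kinase partner of D cyclins, rose by 0.98. Groups were separate in each. Mki67 did not pass without dexamethasone pool 1, 2 or 4 or saline pool 2 (adjusted p from 0.058 to 0.22), Ccnd2 without dexamethasone pool 1 or 2 or saline pool 1 (adjusted p from 0.069 to 0.32), Mcm5 without dexamethasone pool 1, 2 or 4 or saline pool 1 or 2 (adjusted p from 0.083 to 0.31) and Cdk6 without dexamethasone pool 1, 3 or 4 or saline pool 1 or 2 (adjusted p from 0.056 to 0.14). In the apoptosis list 3 of 26 rose and 1 fell (median 0.10). These were Trp53inp1, the death receptor Tnfrsf21 at 316, 202, 233 and 249 against 153 and 85.6 CPM, the p53 target Perp at 24.2, 6.57, 24.5 and 21.997 against 3.41 and 2.61 CPM and, lower, Tnfrsf19 at 119, 81.9, 68.5 and 64.7 against 178 and 216 CPM. Tnfrsf21 did not pass without dexamethasone pool 1, 3 or 4 or saline pool 2 (adjusted p from 0.057 to 0.31), Perp without dexamethasone pool 1, 3 or 4 or saline pool 1 or 2 (adjusted p from 0.088 to 0.2) and Tnfrsf19 without dexamethasone pool 4 or saline pool 2 (adjusted p from 0.057 to 0.15). Among 20 long non-coding RNAs listed, Gas5, a host of small nucleolar RNAs whose span overlaps Zbtb37, stood at 50.6, 80.4, 156 and 129.8 against 289 and 244 CPM (log2 fold change -1.36, SE 0.34, adjusted p = 0.047) and did not pass without dexamethasone pool 1, 2 or 4 or saline pool 1 or 2 (adjusted p from 0.06 to 0.25); no listed RNA was higher at an unadjusted p under 0.05 or by DESeq2.

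**Figure D4:**
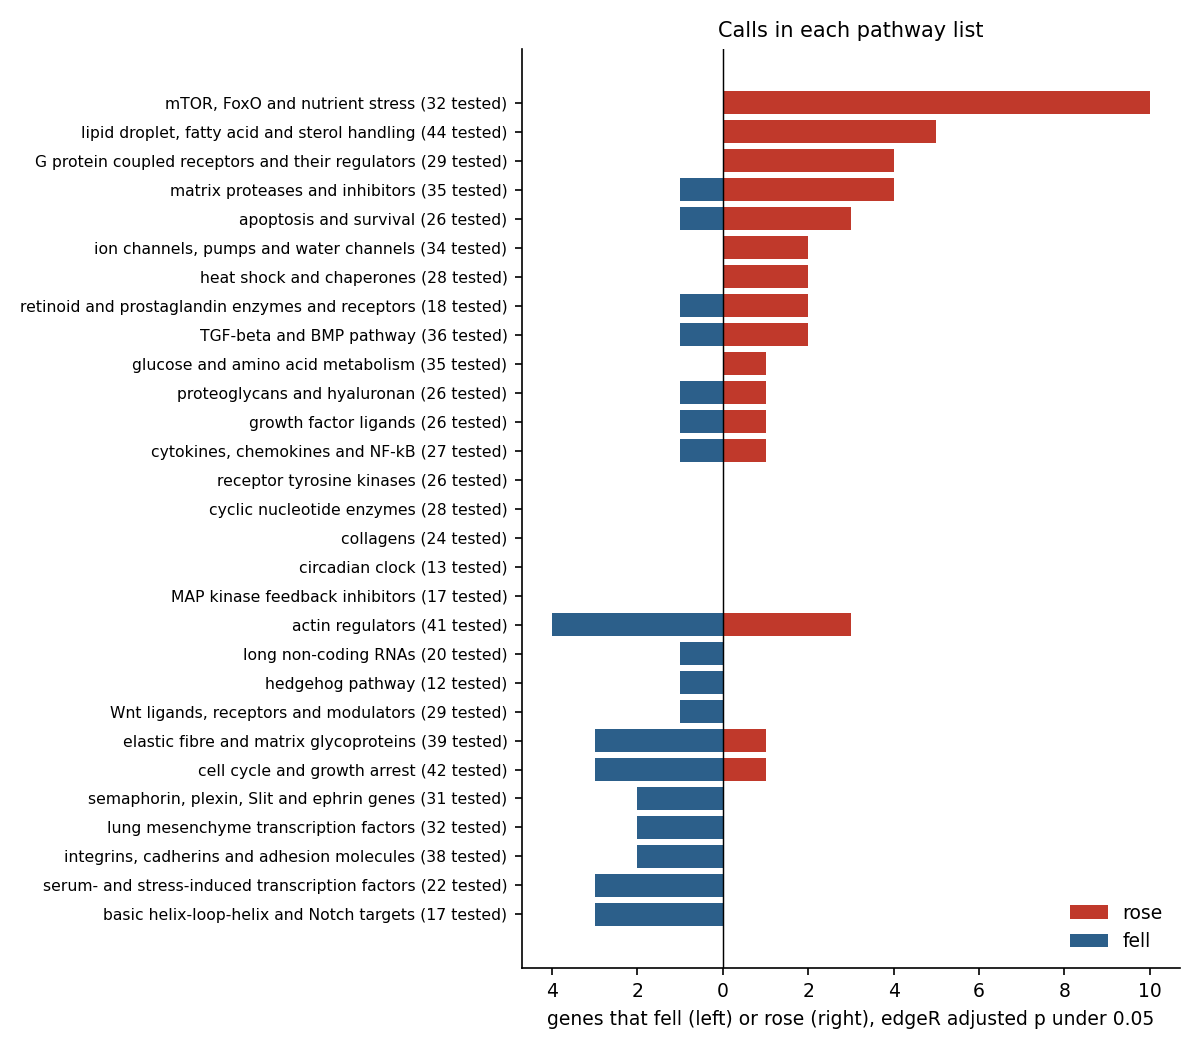
Number of genes that rose (red, to the right) and fell (blue, to the left) in each of 29 pathway lists, with the number tested in brackets. The mTOR, FoxO and nutrient stress list has 10 rises and no fall, and 5 lists have no call. Members and lists were chosen with earlier results of these data known.

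With linear Xist as a covariate no member of any of these lists passed, and with the chondrocyte level only Arrdc3 and Trp53inp1 did.

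Few markers of fibroblasts, muscle and pericytes passed the test. Among 14 matrix fibroblast markers Meox2 alone passed, among 12 myofibroblast markers Enpp2 rose and Fgf18 fell, and of 12 pericyte markers 0 passed (2 were higher at an unadjusted p under 0.05, and DESeq2 called 1). Smooth muscle markers had a median of -0.50, with 10 of 12 lower, but 0 passed by edgeR (6 were lower at an unadjusted p under 0.05, and DESeq2 called 2). Of 13 epithelial markers Hopx, a homeodomain protein also known from type 1 alveolar cells, stood at 26.4, 22.020, 25.0 and 22.4 against 4.09 and 2.61 CPM (log2 fold change 2.86, SE 0.56, adjusted p = 0.0086), and Muc5b, an airway mucin, at 0.816, 4.64, 3.07 and 3.08 against 17.7 and 28.7 CPM (log2 fold change -3.02, SE 0.65, adjusted p = 0.016). Epithelial markers summed to 43.1 to 414 CPM of all counts in treated pools and 83.9 to 387 CPM in saline pools, ranges that overlapped, so their sum did not separate the groups as Hopx and Muc5b did. Hopx did not pass without saline pool 2 (adjusted p = 0.089), and Muc5b without saline pool 2 (adjusted p = 0.2). The receptor gene Nr3c1 stood at 281, 236, 212 and 293 against 391 and 399 CPM (log2 fold change -0.63, SE 0.21, adjusted p = 0.15), lower in every treated pool but not past the threshold. Vcam1, which encodes CD106, stood at 585, 800.1, 541 and 655 against 344 and 850.1 CPM (log2 fold change 0.11, SE 0.30, adjusted p = 0.93), with overlapping groups and a sign that changed with the setting.

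The genes that rose were then looked up in libraries the fits above did not use: 1 library of CD106+ lung cells from fetuses given 1 mg/kg dexamethasone and 2 untreated CD106+ libraries, all at E18.5. Untreated here means that the labels of these 2 libraries name no treatment. CD106 selection yields a different cell fraction, the 2 hours are stated together with the sorting of reporter fetuses and not for this library by itself, and the column of the treated library carries a code that no label explains. With 1 treated library there is no replicate check, and ratios are given on the scale of log2(CPM + 1). All 3 libraries held RNA of both sexes, with Xist at 6172 CPM in the treated library and 6761 and 5221 CPM in the untreated ones, and Ddx3y at 112, 80.2 and 47.5 CPM. Of the 206 genes that rose in mesenchyme, 72 (35.0%) were 2-fold or more higher in the treated CD106+ library, against 10.6% of all genes tested. Of the 63 rises that held in every fit the count was 34 (54.0%), and of the 53 outside the classic list 25 (47.2%). The median log2 ratio of the 206 was 0.56, against -0.21 over all genes tested. Of the 78 genes that fell, 20 (25.6%) were 2-fold or more lower, against 16.6% of all genes, and 12 (15.4%) were 2-fold or more higher, against 10.6%. Their median ratio was 0, the value of fallen genes with 0 CPM in all 3 of these libraries, such as Olfr470 and Zfp352. Of the risen genes, 10 (4.85%) were 2-fold or more lower.

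Named rises differed widely in this second setting. Igfbp3 stood at 55.8 CPM against 3.84 and 4.24 CPM, log2 ratio 3.49. Map3k6, a stress-activated kinase, stood at 49.1 CPM against 4.06 and 3.94 CPM, log2 ratio 3.32. Arhgef3 stood at 127 CPM against 11.3 and 13.8 CPM, log2 ratio 3.24. Each was scarce in both untreated libraries and at least 8 times more abundant in the treated one. Nt5e stood at 14.9 CPM against 1.28 and 2.58 CPM, log2 ratio 2.45, and Xdh at 97.6 CPM against 5.34 and 31.5 CPM, log2 ratio 2.34. The untreated libraries disagreed for Xdh by several fold. By contrast Nampt stood at 136 CPM against 164 and 98.1 CPM, log2 ratio 0.05. Mkx stood at 16.1 CPM against 10.3 and 20.9 CPM, log2 ratio 0.04, and Foxo3 at 125 CPM against 177 and 132 CPM, log2 ratio -0.31. For these 3 the treated library lay between the untreated ones or below both. Fam134b, an endoplasmic reticulum receptor for autophagy that rose by 2.21 in mesenchyme, stood at 9.87 CPM against 64.5 and 25.9 CPM, log2 ratio -2.09, in the opposite direction. Among the falls, Fgf18 stood at 8.46 CPM against 24.3 and 39.3 CPM, log2 ratio -1.79, and Lhfpl2 at 74.7 CPM against 154 and 251 CPM, log2 ratio -1.42, both below the untreated libraries. Nov, scarce in all 3 libraries, stood at 6.77 CPM against 3.42 and 7.43 CPM, log2 ratio 0.27. Id3 stood at 454 CPM against 42.7 and 56.7 CPM, log2 ratio 3.16, opposite to its fall in mesenchyme. Itga4 was also opposite, at 119 CPM against 32.7 and 21.8 CPM, log2 ratio 2.09. As given above, 20 of the 78 falls were 2-fold or more lower here and 12 were 2-fold or more higher. The genes in this paragraph outside the naming rule were chosen after their values were seen.

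**Figure D5:**
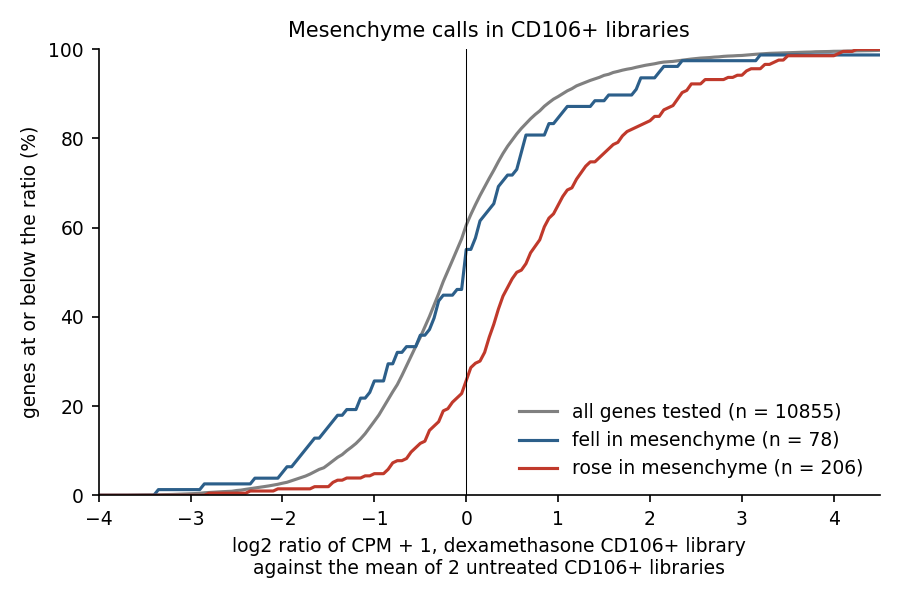
Cumulative share of genes by log2 ratio of CPM plus 1 between 1 dexamethasone CD106+ library and the mean of 2 untreated CD106+ libraries, for genes that rose in mesenchyme (red, 206), fell (blue, 78) and all genes tested (grey, 10855). The red curve lies to the right of the grey one through most of the range, while the blue curve crosses it.

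Promoter sequences were searched because the glucocorticoid receptor binds DNA through a palindrome whose core reads ACANNNTGT. RefSeq promoters (assembly GRCm38.p6, 250 bases before the start site, both strands) were at hand for 153 of the risen, 64 of the fallen and 8582 of the tested genes. The core occurred in 15 risen genes (9.80%, Wilson 95% interval 6.03 to 15.5%), 2 fallen genes (3.13%, 0.861 to 10.7%) and 378 tested genes (4.40%), and in 5.84% of all 32851 promoters of the table. Risen genes had 1.39 promoters each in the table and tested genes 1.28, which gives them more sequence in which a match can fall. The AP-1 motif TGANTCA, searched in the same way, occurred in 4.58% of risen, 6.25% of fallen and 5.24% of tested genes. The E-box CACGTG occurred in 16.3% of risen (11.3 to 23.0%), 7.81% of fallen and 10.0% of tested genes. The CArG box, the site of serum response factor, occurred in 1.96% of risen, 0 of 64 fallen (up to 5.66%) and 1.37% of tested genes. Matches of different motifs may overlap, intervals cover counting error only, and a match describes letters, not binding.

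Of the 63 rises that held in every fit, 6 held the core before the start. They are shown to let the surroundings of the core be compared, each read 5′ to 3′ on the strand of its gene, with the core in capitals and 16 bases on each side; Glul and Fam107a belong to the classic list, and the set was chosen after the values were seen.
Glul (chr1:153899888-153899928, plus strand): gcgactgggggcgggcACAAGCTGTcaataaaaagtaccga
Chst15 (chr7:132317325-132317365, minus strand): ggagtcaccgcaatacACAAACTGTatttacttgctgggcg
Fam107a (chr14:8309871-8309911, minus strand): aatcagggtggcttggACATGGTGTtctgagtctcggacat
Fam134b (chr15:25940573-25940613, plus strand): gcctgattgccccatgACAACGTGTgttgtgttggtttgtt
Map3k6 (chr4:133240623-133240663, plus strand): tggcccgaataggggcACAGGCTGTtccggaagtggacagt
Selenbp1 (chr3:94932900-94932940, plus strand): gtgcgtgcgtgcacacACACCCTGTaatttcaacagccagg
The first base of the core lies 25, 121, 116, 113, 179 and 167 bases before the start of that promoter entry, in the same order. For Chst15, Fam107a, Fam134b and Map3k6, 4 of the 6, the window lies inside the span of the gene, so the start is an internal one, and for Glul and Selenbp1 it lies before the span. The 3 bases between the palindrome arms differ in every one of the 6, and the core of Glul is the nearest of the 6 to its start.

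Hopx, the one gene named by rule that rose and held the core, is shown with its whole window of 250 bases before the start of the promoter with the match, from 2 in the table, with the core in capitals 222 bases before the start.
Hopx (chr5:77115124-77115373, minus strand): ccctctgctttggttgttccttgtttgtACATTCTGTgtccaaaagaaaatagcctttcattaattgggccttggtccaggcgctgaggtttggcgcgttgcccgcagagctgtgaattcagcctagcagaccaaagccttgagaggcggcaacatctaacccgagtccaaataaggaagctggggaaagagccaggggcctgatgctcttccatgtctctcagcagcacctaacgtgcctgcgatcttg
Among the remaining rises with a core were Txnip, at 1.33 on the log2 scale, and Greb1, known as an oestrogen-induced gene, at 1.99, both chosen after their values were seen.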

How the data were processed

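The authors deposited a table of estimated counts per gene, whose values are not all whole (5.35 to 7.05% of the values in a pool are fractional), with gene symbols and no coordinates. The submitters' processing notes name, in alphabetical order, Bowtie2, HOMER, MACS2, Partek, TopHat2 and Trim Galore with the build mm10 for the series, without roles or versions; how reads were counted, and whether by strand, is not given in the sources used here. Symbols were matched to RefSeq (GRCm38.p6) for 24240 of 24371 genes. Counts were rounded to whole numbers, genes on X, Y or without a known chromosome were left out, low genes were removed with filterByExpr, libraries were scaled by TMM, and the 4 dexamethasone pools were compared with the 2 saline pools by edgeR's robust quasi-likelihood test with Benjamini-Hochberg adjustment at 0.05 (edgeR 4.0.16, limma 3.58.1, R 4.3.3). DESeq2 1.42.0, limma-voom, other scalings and filters, covariates for Xist and chondrocyte markers, a replicate block, leaving out each pool, and dexamethasone pool 2 alone were alternatives; linear Xist was added after seeing the data. Total counts per pool were 1670896 to 4224245, and in data simulated for this comparison with 200 changed genes among 10855, 12% of log2 changes of 1 and 67% of changes of 2 were recovered, with 4 false calls among 83. Replicate pools differed by more than sampling noise (chi-square per degree of freedom 7.55 to 19.0). Rn45s, a ribosomal RNA gene, took 2.23 to 9.83% of counts. Named genes were the 16 largest rises held in all 6 fits without 1 pool (mean logCPM of 3 or more, no overlap, not classic), falls by the same rule filled to 10 by smallest p, and up to 4 called members of each list; further called members complete a list's count. The members and lists were chosen with earlier results of these data known. A few genes that count in these totals are not reported here by name.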

Additional observations from a re-analysis of the deposited data

Results flagged for a closer look

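In 11 of the 83 genes examined, 1 dexamethasone pool stood apart from the other 3, with a gap, as a share of the range over the 4 pools, above Dixon's 95% critical value. Chance alone gives about 1 in 20 such groups, or 4.15 of 83. Pool 1 was the highest for Fkbp5 at 299 CPM, Adamts15 at 414 CPM and Pnpla2 at 52.8 CPM. Pool 2 was the lowest for Cxcl12 at 37.5 CPM and Perp at 6.57 CPM. Pool 3 was the lowest for Amigo2 at 133 CPM and the highest for Gdap10 at 494 CPM, Mcm5 at 10.2 CPM and Col2a1 at 281 CPM. Pool 4 was the highest for 1810011O10Rik (Tcim) at 197 CPM and Bnip3 at 275 CPM. The 2 saline pools are too few for this comparison. Pool 3 also had the most cartilage RNA among the treated pools; its part in the values of pool 3 was not tested.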

How the results depend on the processing

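The number of calls (284, with 206 risen and 78 fallen) stayed within 1.5 times under the other scalings, the stricter filter, X and Y genes kept in, Rn45s left out, no robust estimation and limma-voom. The genes were not all the same. Of the 284, limma-voom also called 225 in the same direction, scaling by library totals 239, and the fit with Rn45s left out 284. Without a filter the counts were 568, 352 and 216, and with DESeq2 489, 349 and 140. With log2 Xist as a covariate 178 genes passed (149 risen, 29 fallen), with linear Xist 0 in either direction by edgeR (426 higher and 288 lower at an unadjusted p under 0.05), with the chondrocyte level 20 (20 risen, 0 fallen; 208 lower at an unadjusted p under 0.05), and with dexamethasone pool 2 alone, an arm of 1 library, 86 (66 risen, 20 fallen). Leaving out 1 pool gave 168 to 320 changed, 123 to 214 risen and 37 to 106 fallen genes. With the replicate block 285 genes passed, 185 of them shared with the 284. The labels tie no pool number to a litter or day, so the numbers were not taken to pair the pools. Deviations of same-numbered pools (r = -0.05 for pools 1 and 0.06 for pools 2) cannot decide this, since the 2 saline pools mirror each other around their mean. The log2 fold change of Vcam1, 0.11, turned to -0.00965 under library totals, -0.34 with linear Xist and -0.33 with the chondrocyte level, and ran from -0.39 (without saline pool 1) to 0.92 (without saline pool 2) when 1 pool was left out, with -0.01 without dexamethasone pool 2, and the log2 fold change of Col2a1 to 0.48 with the chondrocyte level, which it helps to define. In CD106+ libraries the median ratio of the fallen genes was -0.35 at 10 CPM or more instead of 0. Among fallen genes called in every fit, 1 had a promoter in the table, and the share with ACANNNTGT, TGANTCA or CACGTG was 0. Beyond what the settings' construction shows, the cause of these shifts was not tested. With 2 saline pools, a true change of log2 1 would mostly be missed at this depth.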
